A study of Mus musculus with 11 samples.

Results

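The genes described here are 9 from the families of methyl-CpG binding proteins and Gadd45. The 9 are the methyl-CpG-binding domain genes Mbd1, Mbd2, Mbd3 and Mbd4, the zinc finger genes Zbtb33 (Kaiso), Zbtb38 and Zbtb4, and the stress genes Gadd45a and Gadd45b. They were taken by name, as the probe sets whose only platform gene symbol is 1 of these, which gave 9 probe sets, 1 per gene, of 28939 tested. No member probe set was at the floor of the deposited values on any sample. Levels are log2 array values, so a difference of 1 log2 unit is a doubling, and levels are compared only between samples of the same gene.

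RNA was measured on 11 arrays of FVB mouse thymus, in a study of Dnmt3b, an enzyme that places new DNA methylation, in MYC-induced lymphoma. All mice carried EμSR-tTA, a tetracycline-controlled activator made in blood cells, and the Rosa26LOXPEGFP reporter. Normal thymocytes (n = 3) came from Teto-Cre, Dnmt3b+/+ mice without a MYC transgene at 24 days of age. Wild-type lymphomas (n = 3) came from Teto-MYC, Dnmt3bF/F mice without Cre, with Dnmt3b therefore intact. Dnmt3b-deficient lymphomas (n = 3) came from Teto-MYC, Teto-Cre, Dnmt3b-/- mice, and both kinds of lymphoma were final tumors. Pre-tumor Dnmt3b-deficient thymocytes (n = 2) had the genotype of the Dnmt3b-deficient lymphomas and were taken at 24 days. Sorting for EGFP was applied to the pre-tumor thymi and not to the tumors, while the labels do not make clear whether normal thymocytes were sorted. Against normal thymocytes, all 3 other groups therefore differ in the MYC transgene. The wild-type lymphomas differ also in stage, in lacking Cre and in carrying Dnmt3bF/F in place of Dnmt3b+/+. The Dnmt3b-deficient lymphomas differ also in stage and Dnmt3b, and the pre-tumor thymocytes also in Dnmt3b. Where the normal thymocytes stand on sorting is unclear, and the parts of these factors in a difference cannot be told apart. The labels call the samples of a group biological replicates.

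Cytosine methylation at CpG pairs is read by proteins that bind the methylated base and bring histone deacetylases and other repressors to it. MBD1, MBD2 and the Kaiso-like zinc finger proteins are such readers, MBD3 is a subunit of the NuRD remodelling and deacetylase complex, and MBD4 is a glycosylase that repairs the mismatch left when methylcytosine deaminates. The Gadd45 proteins are small stress-induced proteins that bind repair factors, have been linked to removal of DNA methylation, and act on stress-kinase signalling and cell cycle arrest. MYC, with its partner MAX, binds the E-box CACGTG.

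RefSeq promoter windows of 250 bases before to 50 after the transcript start (GRCm38.p6) were found for 7 of the 9 genes, in 9 windows because Zbtb38 has 3. Zbtb33 and Zbtb4 are shown because both encode Kaiso-like readers and their RNA moved in opposite directions. Capitals mark each CpG, the pair these proteins read when it is methylated. The window of Zbtb33 is at chrX:38189543-38189842 on the plus strand and that of Zbtb4 at chr11:69765662-69765961 on the plus strand.
Zbtb33: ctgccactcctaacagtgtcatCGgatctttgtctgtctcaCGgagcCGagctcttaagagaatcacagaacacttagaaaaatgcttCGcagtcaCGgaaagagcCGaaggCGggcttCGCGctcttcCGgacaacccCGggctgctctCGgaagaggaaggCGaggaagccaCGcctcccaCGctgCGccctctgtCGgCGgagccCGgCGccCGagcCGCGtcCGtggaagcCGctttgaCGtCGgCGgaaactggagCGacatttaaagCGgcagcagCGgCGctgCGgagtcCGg
Zbtb4: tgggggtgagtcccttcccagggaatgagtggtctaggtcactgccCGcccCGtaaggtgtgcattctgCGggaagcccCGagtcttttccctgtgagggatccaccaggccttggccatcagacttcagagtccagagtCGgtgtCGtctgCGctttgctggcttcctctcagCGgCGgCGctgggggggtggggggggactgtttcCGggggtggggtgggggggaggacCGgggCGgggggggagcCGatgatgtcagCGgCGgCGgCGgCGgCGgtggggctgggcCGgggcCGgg
The Zbtb33 window held 34 CpG pairs, more than 92.3% of the 32851 promoter windows, and that of Zbtb4 held 22, more than 76.9%. Over the 9 windows the CpG count ran from 8 to 41, beside a median of 7 over all windows. The motif CGCG, a doubled CpG, was in 7 of the 9 windows and in 38% of all windows, and the Zbtb4 window and 1 of those of Zbtb38 did not hold it.

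Gadd45a and Gadd45b are shown because the first fell in every group with the MYC transgene and the second did not pass in any. Capitals mark the E-box CACGTG, which reads the same on both strands. The Gadd45a window is at chr6:67037358-67037657 on the minus strand and the Gadd45b window at chr10:80929841-80930140 on the plus strand.
Gadd45a: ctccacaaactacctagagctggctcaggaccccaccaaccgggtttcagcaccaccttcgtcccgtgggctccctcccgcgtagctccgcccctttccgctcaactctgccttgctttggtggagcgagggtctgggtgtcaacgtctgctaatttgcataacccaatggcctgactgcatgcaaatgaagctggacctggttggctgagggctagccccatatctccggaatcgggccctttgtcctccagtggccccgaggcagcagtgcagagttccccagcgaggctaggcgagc
Gadd45b: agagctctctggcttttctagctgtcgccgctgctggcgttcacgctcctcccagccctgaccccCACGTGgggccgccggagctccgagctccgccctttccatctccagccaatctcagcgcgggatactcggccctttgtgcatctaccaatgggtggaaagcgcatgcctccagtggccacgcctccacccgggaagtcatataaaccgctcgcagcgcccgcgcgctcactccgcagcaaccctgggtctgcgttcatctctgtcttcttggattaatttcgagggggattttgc
CACGTG was found in the Gadd45b window and in no other member window, and in 7.15% of all windows. The sequence TCCTGCNA, to which Kaiso can bind without methylation, was searched on both strands and found in the Mbd3 window alone among the members, and in 4.96% of all windows. A match describes these letters and does not show that a factor is bound.

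In the groups with the MYC transgene, 7 of the 9 genes differed from normal thymocytes in at least 1 comparison. Zbtb33 and Zbtb38 rose in all 3 groups, and Mbd1, Zbtb4 and Gadd45a fell in all 3. Mbd4 rose in the Dnmt3b-deficient lymphomas and pre-tumor thymocytes, and Mbd3 fell in the wild-type lymphomas and pre-tumor thymocytes. Mbd2 and Gadd45b passed in none. By limma with Benjamini-Hochberg adjustment over all probe sets, 2 genes were called as higher and 4 as lower in wild-type lymphomas, against 9.58% and 10.3% of all probe sets (19.9% in either direction). Dnmt3b-deficient lymphomas had 3 higher and 3 lower, against 9.7% and 10.5% (20.2%). The pre-tumor thymocytes had 3 higher and 4 lower, against 9.69% and 9.88% (19.6%). Among the 20038 probe sets above the floor on every sample, as these 9 are, the shares were 27.9%, 28.3% and 27.1%. The samples did not overlap with normal thymocytes for 8, 6 and 7 of the 9 genes in the 3 groups in that order, beside 34.9%, 32.4% and 44.7% of all probe sets and 48%, 44.8% and 59.8% of those above the floor on every sample. The median size of difference was 0.69, 0.69 and 0.74 log2 units for the 9 genes, 0.17, 0.16 and 0.20 for all probe sets, and 0.30, 0.27 and 0.33 for those above the floor on every sample. The 3 comparisons share the same normal samples, so their shared directions are not independent of each other. Of the 7 genes called in the pre-tumor thymocytes, which are 2 samples, only 1, Zbtb38, was called without pre-tumor replicate 2.

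**Figure D1:**
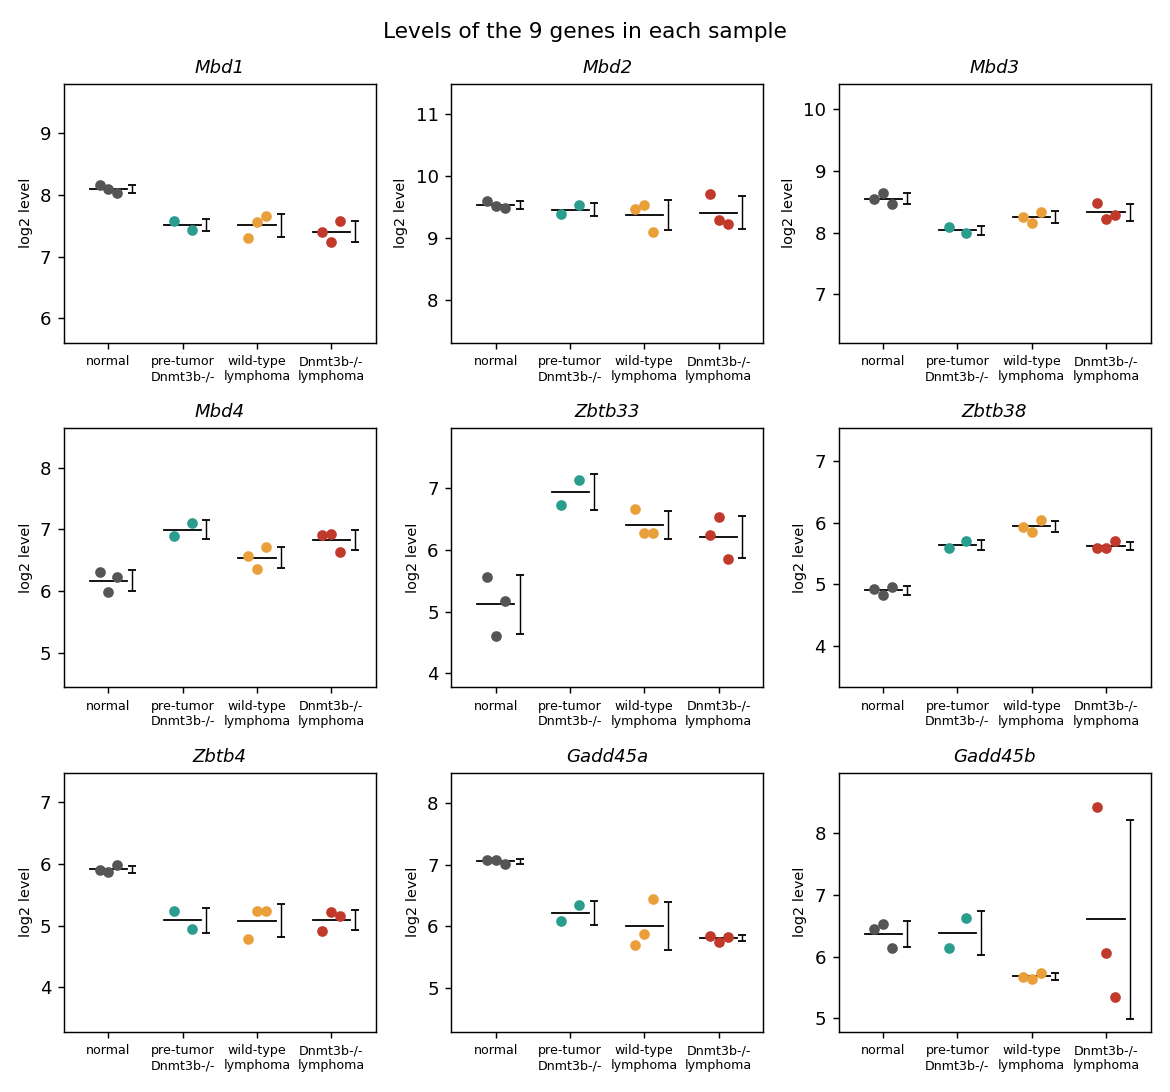
Log2 array level (y axis) of each of the 9 genes in the 11 samples, by group. Points are samples, the line is the group mean and the bar is 1 SD. Zbtb33 and Zbtb38 are lowest in the normal samples, Mbd1, Zbtb4 and Gadd45a are highest there, and a single Dnmt3b-deficient lymphoma stands at 8.42 for Gadd45b.

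Mbd1 encodes a repressor that binds methylated CpG and works with the histone methyltransferase SETDB1. The log2 level of Mbd1 was 8.17, 8.10 and 8.03 in the normal samples, 7.58 and 7.44 in the pre-tumor samples, 7.30, 7.57 and 7.66 in the wild-type tumors and 7.40, 7.24 and 7.58 in the Dnmt3b-deficient tumors. Every normal sample was above every other sample, and the 3 groups with MYC overlapped. Mbd1 was 1.51-fold lower in wild-type lymphomas (difference -0.59, SE 0.12, adjusted p = 0.0114 by limma). It was 1.62-fold lower in Dnmt3b-deficient lymphomas (-0.69, SE 0.12, adjusted p = 0.00536 by limma) and 1.51-fold lower in pre-tumor thymocytes (-0.59, SE 0.13, adjusted p = 0.0183 by limma). The pre-tumor call was lost without pre-tumor replicate 2 (adjusted p = 0.140), normal replicate 1 (0.0521) or normal replicate 2 (0.0525).

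Mbd2, which carries NuRD to methylated DNA, lay within a narrow range. Mbd2 stood at 9.60, 9.52 and 9.48 in the normal samples, 9.39 and 9.53 in the pre-tumor samples, 9.47, 9.54 and 9.09 in the wild-type tumors and 9.71, 9.29 and 9.22 in the Dnmt3b-deficient tumors. All groups overlapped, and the whole range over the 11 samples was 0.61 log2 units, the smallest of the 9 genes. The differences from normal thymocytes were -0.17, -0.13 and -0.08, with adjusted p = 0.570, 0.715 and 0.956 by limma.

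Mbd3, the NuRD subunit, was lowest in the pre-tumor thymocytes. Mbd3 stood at 8.54, 8.64 and 8.47 in the normal samples, 8.09 and 7.99 in the pre-tumor samples, 8.26, 8.15 and 8.34 in the wild-type tumors and 8.48, 8.22 and 8.29 in the Dnmt3b-deficient tumors. The pre-tumor samples lay below every other sample, and the highest Dnmt3b-deficient lymphoma overlapped the normal samples. In pre-tumor thymocytes Mbd3 was 1.42-fold lower than in normal thymocytes (-0.51, SE 0.09, adjusted p = 0.00916 by limma), a call lost without pre-tumor replicate 2 (0.0813). In wild-type lymphomas it was 1.23-fold lower (-0.30, SE 0.08, adjusted p = 0.0380 by limma). This small difference lost its call in 12 of the 19 alternatives, among them centring each array on its median (adjusted p = 0.0662), quantile normalization (0.0719), the 2 groups alone (0.0566) and only probe sets above the median level (0.0550). Leaving out a sample ended it for normal replicate 1 (0.0868), normal replicate 2 (0.123), wild-type replicate 1 (0.102), wild-type replicate 2 (0.115), Dnmt3b-deficient lymphoma replicate 3 (0.0569) and either pre-tumor sample (0.0528 each). In Dnmt3b-deficient lymphomas the difference of -0.22 did not pass (SE 0.08, adjusted p = 0.110 by limma), and without Dnmt3b-deficient lymphoma replicate 1, the overlapping sample, it did (0.0374).

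Mbd4, the repair glycosylase, was the MBD gene that was higher with MYC. Mbd4 stood at 6.31, 5.98 and 6.22 in the normal samples, 6.89 and 7.10 in the pre-tumor samples, 6.56, 6.36 and 6.71 in the wild-type tumors and 6.90, 6.93 and 6.64 in the Dnmt3b-deficient tumors. No sample with MYC was as low as the highest normal sample, although the gap to wild-type lymphoma replicate 2 was small. Mbd4 was 1.58-fold higher in Dnmt3b-deficient lymphomas (0.66, SE 0.13, adjusted p = 0.0112 by limma) and 1.78-fold higher in pre-tumor thymocytes (0.83, SE 0.15, adjusted p = 0.00885 by limma). The difference of 0.37 in wild-type lymphomas did not pass (SE 0.13, adjusted p = 0.0909 by limma). The pre-tumor call was lost without pre-tumor replicate 2 (0.0807) and when only the 2 groups were fitted (0.0617).

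Zbtb33 encodes Kaiso, which binds paired methylated CpG and recruits a corepressor complex with HDAC3. Zbtb33 stood at 5.57, 4.61 and 5.17 in the normal samples, 6.73 and 7.14 in the pre-tumor samples, 6.67, 6.28 and 6.28 in the wild-type tumors and 6.25, 6.53 and 5.86 in the Dnmt3b-deficient tumors. The normal samples were the lowest 3 and the pre-tumor samples the highest 2, and the normal samples also spread the most of the groups (SD 0.48). Zbtb33 was 3.52-fold higher than normal in pre-tumor thymocytes (1.82, SE 0.31, adjusted p = 0.00814 by limma). It was 2.45-fold higher in wild-type lymphomas (1.29, SE 0.28, adjusted p = 0.0164 by limma) and 2.14-fold higher in Dnmt3b-deficient lymphomas (1.10, SE 0.28, adjusted p = 0.0299 by limma). The wild-type call was lost without wild-type replicate 1 (0.0628) and the pre-tumor call without pre-tumor replicate 2 (0.0747) or with the 2 groups alone (0.0771). The call in Dnmt3b-deficient lymphomas was lost without normal replicate 2 (0.0781) or 3 (0.0690), without lymphoma replicate 1 (0.0784) or 2 (0.0997), and with the 2 groups alone (0.103).

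Zbtb38, a reader that binds single methylated CpG pairs, had the smallest error for its size. Zbtb38 stood at 4.93, 4.82 and 4.95 in the normal samples, 5.58 and 5.70 in the pre-tumor samples, 5.92, 5.85 and 6.04 in the wild-type tumors and 5.58, 5.58 and 5.70 in the Dnmt3b-deficient tumors. The normal samples were lowest, the wild-type lymphomas highest, and the groups labelled Dnmt3b-/- lay between and overlapped each other. Zbtb38 was 2.05-fold higher than normal in wild-type lymphomas (1.03, SE 0.06, adjusted p = 0.000281 by limma). It was 1.64-fold higher in Dnmt3b-deficient lymphomas (0.72, SE 0.06, adjusted p = 0.000570 by limma) and 1.67-fold higher in pre-tumor thymocytes (0.74, SE 0.07, adjusted p = 0.00153 by limma). All 3 calls were kept in each of the 19 alternatives.

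Zbtb4, the related reader, went the other way. Zbtb4 stood at 5.90, 5.87 and 5.98 in the normal samples, 5.23 and 4.94 in the pre-tumor samples, 4.78, 5.23 and 5.24 in the wild-type tumors and 4.91, 5.22 and 5.15 in the Dnmt3b-deficient tumors. The normal samples were the highest 3, and the other groups overlapped, with means of 5.08, 5.09 and 5.09. Zbtb4 was 1.78-fold lower in wild-type lymphomas (-0.83, SE 0.15, adjusted p = 0.00722 by limma), 1.77-fold lower in Dnmt3b-deficient lymphomas (-0.82, SE 0.15, adjusted p = 0.00684) and 1.78-fold lower in pre-tumor thymocytes (-0.83, SE 0.16, adjusted p = 0.0128). The pre-tumor call was lost without pre-tumor replicate 2 (0.111).

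Gadd45a, a target of p53 that restrains the cell cycle, had the lowest mean difference from normal thymocytes of the 9 genes in each comparison. Gadd45a stood at 7.07, 7.08 and 7.01 in the normal samples, 6.08 and 6.35 in the pre-tumor samples, 5.70, 5.87 and 6.44 in the wild-type tumors and 5.84, 5.75 and 5.82 in the Dnmt3b-deficient tumors. The normal samples lay together (SD 0.04) and above all others, while 1 wild-type lymphoma stood at 6.44, above the pre-tumor samples. Gadd45a was 2.07-fold lower in wild-type lymphomas (-1.05, SE 0.17, adjusted p = 0.00579 by limma), 2.38-fold lower in Dnmt3b-deficient lymphomas (-1.25, SE 0.17, adjusted p = 0.00260) and 1.79-fold lower in pre-tumor thymocytes (-0.84, SE 0.20, adjusted p = 0.0226). The pre-tumor call was lost without pre-tumor replicate 1 (0.111) or 2 (0.0802) and without normal replicate 1 (0.0568) or 2 (0.0651).

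Gadd45b, which is induced by NF-kappaB and binds the stress kinase MAP3K4, varied more than any other member, over 3.08 log2 units. Gadd45b stood at 6.44, 6.53 and 6.13 in the normal samples, 6.13 and 6.63 in the pre-tumor samples, 5.67, 5.63 and 5.73 in the wild-type tumors and 8.42, 6.05 and 5.34 in the Dnmt3b-deficient tumors. The Dnmt3b-deficient lymphomas held both the highest and the lowest of the 11 values (SD 1.61), and the wild-type lymphomas lay together below all normal samples (SD 0.05). The differences from normal were -0.69 (SE 0.69, adjusted p = 0.607 by limma) in wild-type lymphomas, 0.23 (adjusted p = 1) in Dnmt3b-deficient lymphomas and 0.02 (adjusted p = 1) in pre-tumor thymocytes. The spread that all groups share in the fit comes largely from the Dnmt3b-deficient lymphomas: with wild-type lymphomas and normal thymocytes fitted alone, the same -0.69 passed (adjusted p = 0.0247). Without Dnmt3b-deficient lymphoma replicate 1, the difference of that group from normal turned from 0.23 to -0.67 and did not pass (adjusted p = 0.125).

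**Figure D2:**
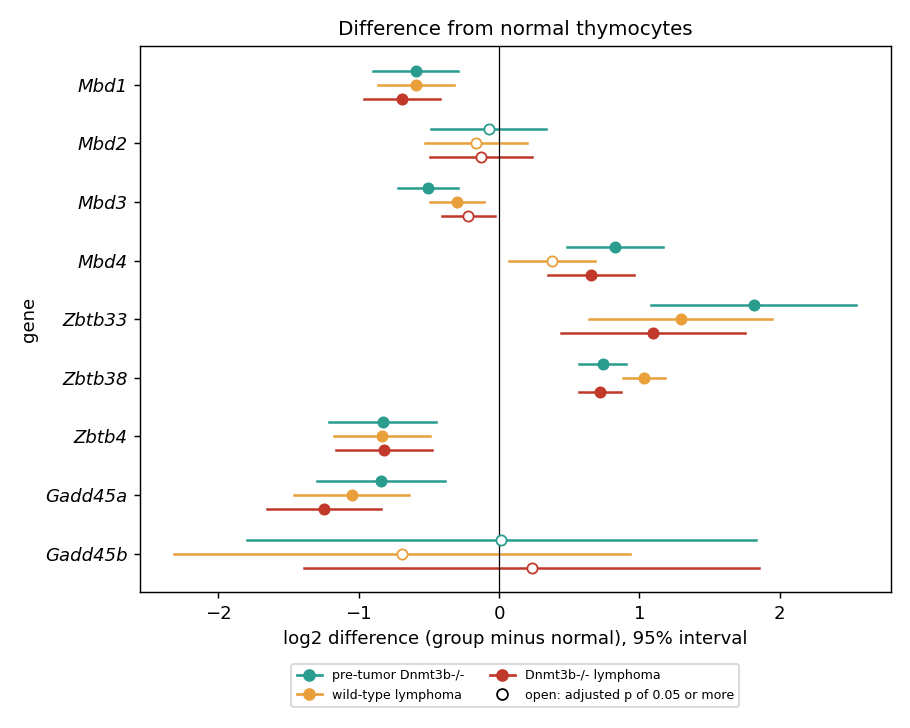
Log2 difference from normal thymocytes (x axis) for the 9 genes in the 3 groups with the MYC transgene, with 95% intervals from limma. Filled points passed an adjusted p of 0.05 and open points did not; Zbtb33 at 1.82 in pre-tumor thymocytes is the largest rise and Gadd45a at -1.25 in Dnmt3b-deficient lymphomas the largest fall.

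None of the 9 genes was called between the 3 groups with the MYC transgene. Between Dnmt3b-deficient and wild-type lymphomas limma called 0 of the 9, with 1 at an unadjusted p under 0.05, beside 0.00691% of all probe sets called and 6.3% at that unadjusted level. That gene was Zbtb38, 1.24-fold lower in Dnmt3b-deficient lymphomas (-0.32, SE 0.06, 95% interval -0.47 to -0.17, unadjusted p = 0.00145, adjusted p = 0.396 by limma). It was also the only member whose samples did not overlap between the tumor genotypes. The same was so for 7.98% of all probe sets and 10.5% of those above the floor on every sample. Cre and the loss of Dnmt3b coincide in these tumors, so their parts cannot be told apart. Mbd4 differed by 0.28 (95% interval -0.02 to 0.59, adjusted p = 0.812 by limma) and Gadd45b by 0.92 (95% interval -0.70 to 2.55, adjusted p = 0.930). For Gadd45a (-0.20, 95% interval -0.61 to 0.21) and Zbtb33 (-0.20, 95% interval -0.85 to 0.46), the intervals leave room for differences in either direction. The differences of Mbd1, Mbd2, Mbd3 and Zbtb4 were between -0.10 and 0.08. Their 95% intervals were -0.37 to 0.17, -0.33 to 0.40, -0.11 to 0.27 and -0.33 to 0.35 in that order.

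Dnmt3b-deficient lymphomas were compared with pre-tumor thymocytes of the same genotype, which sets tumor and unsorted cells against early and sorted ones. No member was called by limma, with 1 at an unadjusted p under 0.05, beside 0.0691% of all probe sets called and 9.43% at that unadjusted level. Samples did not overlap for 3 of the 9 genes, beside 20.9% of all probe sets and 27% of those above the floor on every sample. Mbd3 was higher in the lymphomas by 0.29 (95% interval 0.08 to 0.50, adjusted p = 0.374 by limma). Zbtb33 was lower by 0.72 (-0.72, 95% interval -1.45 to 0.01, adjusted p = 0.539) and Gadd45a by 0.41 (-0.41, 95% interval -0.87 to 0.05, adjusted p = 0.568).

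Wild-type lymphomas and pre-tumor thymocytes differ in stage, sorting, Cre and Dnmt3b at once. Here too limma called 0 of the 9 genes, with 2 at an unadjusted p under 0.05, beside 0.107% of all probe sets called and 7.77% at that unadjusted level. Samples did not overlap for 5 of the 9 genes, beside 19.5% of all probe sets and 25.4% of those above the floor on every sample. Zbtb38 was higher in the wild-type lymphomas by 0.29 (95% interval 0.12 to 0.46, adjusted p = 0.305 by limma), and Mbd4 was lower (-0.45, 95% interval -0.80 to -0.11, adjusted p = 0.460). The others without overlap were Zbtb33 (-0.52), Mbd3 (0.21) and Gadd45b (-0.71).

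**Figure D3:**
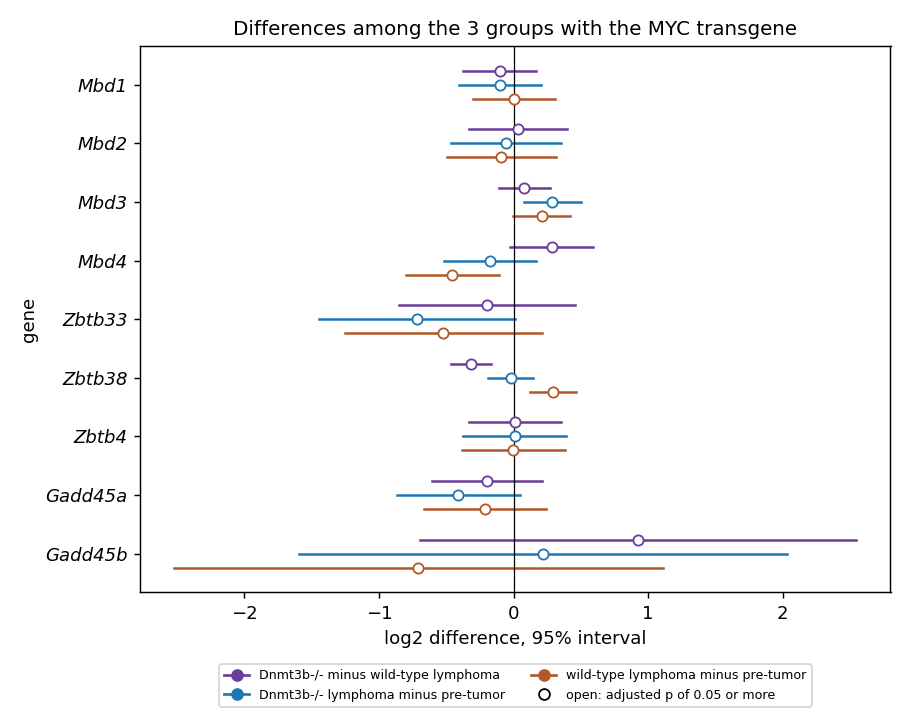
Log2 differences (x axis) between the 3 groups with the MYC transgene for the 9 genes, with 95% intervals from limma that are not adjusted for the number of genes. All points are open because none passed an adjusted p of 0.05, and the interval is widest for Gadd45b and narrowest for Zbtb38.

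Other genes of the same pathways were taken by name from 5 lists, and none of their probe sets was called among the groups with MYC. Their counts against normal thymocytes stand beside 19.9%, 20.2% and 19.6% of all probe sets called in wild-type lymphomas, Dnmt3b-deficient lymphomas and pre-tumor thymocytes, and 27.9%, 28.3% and 27.1% of those above the floor on every sample. With lists of 8 to 16 probe sets, nothing is read from a list's count as such. Of 8 probe sets of other methyl-DNA readers and MBD relatives, 2 rose and 2 fell in wild-type tumors, 2 and 2 did so in Dnmt3b-deficient tumors, and 3 and 1 in pre-tumor samples. Baz2a, a chromatin protein that silences ribosomal RNA genes, fell by 0.99, 1.03 and 0.98 log2 units in the 3 groups in that order (adjusted p = 0.000523, 0.000337 and 0.00125 by limma). Setdb1, the histone methyltransferase that works with MBD1, rose while Mbd1 fell, by 0.46, 0.47 and 0.49 (adjusted p = 0.0127, 0.0111 and 0.0170 by limma). The Setdb1 call in pre-tumor thymocytes was lost in 3 of the 19 alternatives. Among them were the 2 groups alone (0.107) and pre-tumor replicate 2 left out (difference 0.39). Mbd6 fell in Dnmt3b-deficient lymphomas (-0.90, adjusted p = 0.00571 by limma).

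Of 16 probe sets of 12 NuRD genes, 4 rose and 2 fell in wild-type tumors, 3 and 3 did so in Dnmt3b-deficient tumors, and 3 and 2 in pre-tumor samples, with medians of 0.15, -0.04 and 0.15. That is 6, 6 and 5 of the 16 called, beside 19.9%, 20.2% and 19.6% of all probe sets. Among those above the floor on every sample the shares were 27.9%, 28.3% and 27.1%. Subunits moved in opposite directions. Rbbp7, a histone-binding subunit, rose by 1.42, 1.71 and 1.56 at its most changed probe set (adjusted p = 0.00215, 0.000976 and 0.00327 by limma). Hdac2 rose by 1.24, 1.00 and 1.51 (adjusted p = 0.017, 0.037 and 0.0135 by limma), calls lost in 3, 11 and 3 of the 19 alternatives. Mta2 fell by 0.63, 0.63 and 0.79 (adjusted p = 0.000587, 0.000427 and 0.000937 by limma), and Rbbp4, the close relative of Rbbp7, fell by 0.47 and 0.45 in the lymphomas (adjusted p = 0.00550 and 0.00577). Rbbp4 also fell in pre-tumor thymocytes (-0.35, adjusted p = 0.0275 by limma), a call lost in 7 of the 19 alternatives.

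Of 12 probe sets of 8 genes for partners of the zinc finger and MBD readers, 6 rose and 1 fell in wild-type tumors. In Dnmt3b-deficient tumors 4 and 1 did so, and 6 and 1 in pre-tumor samples. Some genes, such as Rbbp6 and Tbl1xr1, have several probe sets, so these are not counts of genes. The 7, 5 and 7 of 12 called stand beside 19.9%, 20.2% and 19.6% of all probe sets. Among those above the floor on every sample the shares were 27.9%, 28.3% and 27.1%. Cbx5, a heterochromatin protein, rose by 1.66, 1.94 and 1.77 (adjusted p = 0.00317, 0.00151 and 0.00509 by limma). Rbbp6, the ubiquitin ligase that marks ZBTB38 for degradation, rose by 2.02, 1.97 and 2.33 at its most changed probe set (adjusted p = 0.00476, 0.00479 and 0.00562 by limma), while another of its probe sets did not pass in Dnmt3b-deficient lymphomas (0.31, adjusted p = 0.122). Hdac3, the deacetylase of the Kaiso corepressor, fell by 0.22, 0.32 and 0.37 (adjusted p = 0.0249, 0.00563 and 0.00677 by limma). Tbl1xr1, another partner on this list, went the other way, by 1.01, 0.32 and 1.04 (adjusted p = 0.0235, 0.0371 and 0.0332 by limma). These values are of its most changed called probe set, which was not the same one in every group. The Tbl1xr1 calls were lost in 7, 10 and 9 of the 19 alternatives. The pre-tumor call of Rbbp6 was lost with the 2 groups alone (0.0898) and without pre-tumor replicate 2 (difference 2.20). The wild-type call of Hdac3 was lost in 6 of the 19 alternatives. Among them were centring each array on its median (0.0895) and only probe sets above the median level (0.104). The others left out normal replicate 2 (0.0855) or 3 (0.0664), or wild-type replicate 1 (0.0853) or 2 (0.0718).

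Of 14 probe sets of base excision repair genes, 4 rose and 2 fell in wild-type tumors, 3 and 1 did so in Dnmt3b-deficient tumors, and 3 and 2 in pre-tumor samples. The 6, 4 and 5 of 14 called stand beside 19.9%, 20.2% and 19.6% of all probe sets. For those above the floor on every sample the shares were 27.9%, 28.3% and 27.1%. Parp1, which marks DNA breaks, rose by 0.74, 0.91 and 0.77 (adjusted p = 0.00385, 0.00149 and 0.00629 by limma), and Apex1, the endonuclease that acts after glycosylases such as MBD4, by 0.86, 1.23 and 0.79 (adjusted p = 0.00900, 0.00197 and 0.0208). The pre-tumor call of Apex1 was lost in 5 of the 19 alternatives. Among them were the 2 groups alone (0.0769) and normal replicate 2 (0.0618) or 3 (0.0545) left out. It was also lost without pre-tumor replicate 2 (difference 0.59). Neil1, another glycosylase, fell by 1.32, 1.48 and 1.21 (adjusted p = 0.00115, 0.000679 and 0.00333 by limma). The last list holds 8 probe sets of 7 genes: the third family member Gadd45g, and Gadd45gip1, Map3k4, Mapk14, Pcna, Cdk1 and Ercc5, which were listed as partners of the Gadd45 proteins. None was called in any of the 6 comparisons by limma, with 0 at an unadjusted p under 0.05 in any of them. Gadd45g, chosen here after its values were seen, varied most within the wild-type lymphomas, from 4.35 to 8.0 (SD 1.95). It was at 5.02 to 5.09 in the normal samples, 5.40 to 6.83 in the Dnmt3b-deficient tumors and 4.29 to 4.31 in the pre-tumor samples. The wild-type lymphomas thus overlapped the normal samples, and the difference of 1.52 did not pass (SE 0.88, adjusted p = 0.304 by limma).

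Likeness was measured for the 3 members with the widest range, as the root mean square difference between log2 profiles centred on their means over the 11 samples, among 16068 candidate probe sets. Closest to Zbtb33 were Ppp4r2, a protein phosphatase subunit (0.104 log2 units), Rmi1, a partner of the BLM helicase (0.136), and Ect2, which is needed for cell division (0.136). Closest to Gadd45a were Mef2d (0.156), Ypel5 (0.163) and Smarcc2 (0.166). For Gadd45b the nearest genes were farther away, with Tle6 at 0.373, Hsd17b11 at 0.375 and Tdgf1 at 0.379. Each was highest in Dnmt3b-deficient lymphoma replicate 1, as is Gadd45b, which choosing them by closeness to its profile favours.

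Levels of some cell type markers also differed between the groups. The mean log2 level of 7 T lineage markers was 10.09 to 10.14 in normal thymocytes, 8.77 to 9.06 in wild-type lymphomas, 8.21 to 8.66 in Dnmt3b-deficient lymphomas and 9.01 to 9.17 in pre-tumor thymocytes, with none at the floor throughout a group. That of 7 markers of double-positive thymocytes, the main cell of a young thymus, was 9.61 to 9.82, 5.48 to 6.55, 6.55 to 6.66 and 7.50 to 8.53 in that order, and Rag2 was at the floor in every lymphoma. Of 8 proliferation probe sets, 3, 4 and 3 were called higher in wild-type lymphomas, Dnmt3b-deficient lymphomas and pre-tumor thymocytes than in normal thymocytes. This stands beside 9.58%, 9.7% and 9.69% of all probe sets called higher. In the same order 0 were called lower, although 3, 1 and 3 of the 8 had a negative difference. The macrophage mean of 8 genes ran from 4.62 to 6.65 in wild-type lymphomas, 4.30 to 5.27 in Dnmt3b-deficient lymphomas, 4.24 to 4.56 in pre-tumor thymocytes, where Adgre1 was at the floor, and 5.05 to 5.21 in normal thymocytes. The mean of 6 dendritic cell genes was 6.26 to 6.66 in normal samples, 5.79 to 6.44 in wild-type tumors, 5.37 to 5.76 in Dnmt3b-deficient tumors and 5.66 to 5.97 in pre-tumor samples. Of these genes, 3 fell in Dnmt3b-deficient tumors and 3 in pre-tumor samples, among them Cd74, which serves antigen presentation (-2.12 in Dnmt3b-deficient tumors, adjusted p = 0.00111 by limma). This stands beside 10.5% and 9.88% of all probe sets called lower. In each of these comparisons 0 were called higher, although 1 of the 6 had a positive difference. The neutrophil mean of 8 genes was 4.93 to 5.40 in normal samples and 4.22 to 6.68 in wild-type tumors. It was 4.10 to 6.13 in Dnmt3b-deficient tumors and 4.02 to 4.07 in pre-tumor samples. All 8 genes were without overlap between pre-tumor and normal samples, although 0 were called by limma and 0 had an unadjusted p under 0.05. The same lack of overlap held for 44.7% of all probe sets and 59.8% of those above the floor on every sample. The part of these markers in the members' differences was not tested. In such bulk RNA, fewer cells of a type and less RNA per cell cannot be told apart. Dnmt3b itself was 5.07 to 5.70 in all samples and differed by -0.17 between the tumor genotypes (adjusted p = 0.899 by limma). No source used here says whether its probe set covers the deleted part, so it does not check the genotype labels.

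**Figure D4:**
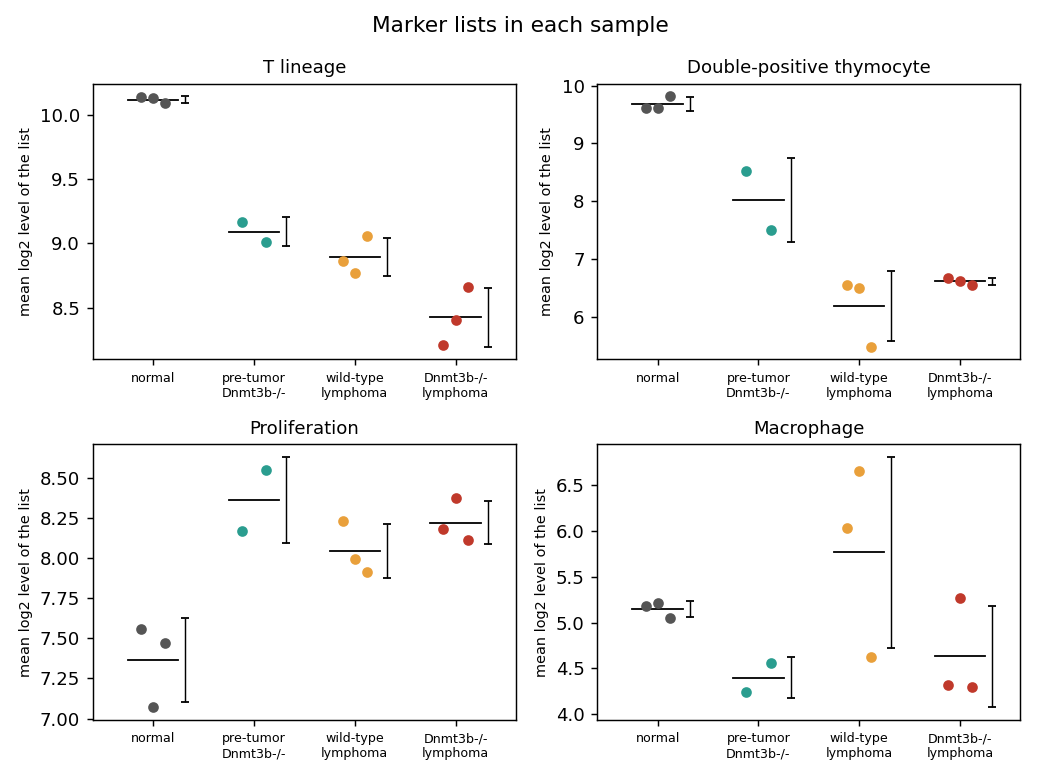
Mean log2 level (y axis) of 4 marker lists in each sample, with the group mean as a line and 1 SD as a bar. The double-positive thymocyte list is highest in normal samples (9.61 to 9.82) and lowest in the wild-type lymphomas (5.48 to 6.55), and the proliferation list is lowest in the normal samples (7.07 to 7.56).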

How the data were processed

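The values are log2 levels as the authors deposited them, 1 array per sample, from 300 ng of RNA each, per the labels. Partek and RMA are named, with no version, in the submitters' processing notes, and no source used here names the genome build. No value lies below 3.322, log2 of 10, and 21.8% to 25.8% of the tested values of a sample equal this floor. Differences of genes near it are therefore understated. The number of arrays limits the precision.

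Of 35512 probe sets, 6573 with IDs below the lowest annotated one were left out. The other 28939 were named through the platform annotation: 21789 have 1 symbol, 1621 several, which were not named, and 5529 none. A model with 1 mean for each of the 4 groups was fitted in R 4.3.3 by limma 3.58.1 with lmFit and an eBayes step that used no variance trend (7 residual and 0.46 prior degrees of freedom). The 6 pairwise comparisons counted a probe set as called where its p, adjusted by Benjamini-Hochberg over the 28939, was under 0.05.

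The genes, the lists and the rule for named genes were chosen with earlier results of these data known. All 9 genes are named, up to 4 called genes with the largest differences per pathway list were eligible, and for the widest 3 members the 3 nearest genes. There were 19 alternatives: other scaling, filters and variance moderation, the 2 groups alone, a replicate block, and each sample left out. The labels do not say that replicate numbers pair the samples, so the main fit used no block. Some genes of the pathway lists are not reported here.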

Additional observations from a re-analysis of the deposited data

How the results depend on the processing

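Of the 54 differences of the 9 genes over 6 comparisons, 19 were called: 10 kept the call in all 19 alternatives, 9 lost it in at least 1, and 0 reversed. Of those not called, 2 were called in at least 1 alternative and 13 changed sign. With each sample left out in turn, the number of genes called against normal thymocytes ranged from 4 to 6 in wild-type lymphomas, 5 to 6 in Dnmt3b-deficient lymphomas and 1 to 7 in pre-tumor thymocytes. Where 1 pre-tumor sample was left out, the other was assumed to vary like the other groups.

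The labels do not say that replicate numbers pair the samples. Over the 5000 most variable probe sets, deviations of same-numbered samples from their group means correlated between -0.327 and 0.335. Of these pairs 3 of 15 were over 0.1, and 3 of 11 samples correlated best with their own number. Deviations from means of so few samples are tied to each other, so these correlations cannot settle whether samples were paired. With the replicate block, limma called 5, 5 and 5 of the 9 genes in wild-type lymphomas, Dnmt3b-deficient lymphomas and pre-tumor thymocytes against normal thymocytes. Lost under it were Mbd3 in wild-type lymphomas (adjusted p = 0.0733 by limma), Zbtb33 in Dnmt3b-deficient lymphomas (0.0671), and Gadd45a (0.0654) and Mbd1 (0.0629) in pre-tumor thymocytes.

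The differences that changed sign were not called in any of these settings. Centring each sample on its median gave -0.018 for Zbtb4 between the tumor genotypes, 0.0033 for Mbd2 in pre-tumor against normal thymocytes, -0.049 for Zbtb4 in Dnmt3b-deficient lymphomas against pre-tumor thymocytes and -0.025 for Mbd1 in wild-type lymphomas against pre-tumor thymocytes. Quantile normalization gave -0.0036 for Zbtb4 between the tumor genotypes, -0.088 for Gadd45b in pre-tumor against normal thymocytes, and 0.022 for Zbtb38 and -0.0047 for Zbtb4 in Dnmt3b-deficient lymphomas against pre-tumor thymocytes. The replicate block gave -0.23 for Gadd45b in pre-tumor against normal thymocytes, 0.032 for Mbd2 and -0.039 for Zbtb4 in Dnmt3b-deficient lymphomas against pre-tumor thymocytes, and -0.039 for Mbd1 in wild-type lymphomas against pre-tumor thymocytes.

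Leaving out samples moved the difference between the tumor genotypes from -0.35 to 0.019 for Gadd45a, -0.11 to 0.13 for Mbd2 and -0.14 to 0.10 for Zbtb4. Against normal thymocytes, Gadd45b ranged from -0.67 to 0.87 in Dnmt3b-deficient lymphomas and from -0.23 to 0.26 in pre-tumor thymocytes. In Dnmt3b-deficient lymphomas against pre-tumor thymocytes the range was -0.69 to 0.85 for Gadd45b, -0.21 to 0.039 for Mbd2, -0.084 to 0.039 for Zbtb38 and -0.14 to 0.15 for Zbtb4. In wild-type lymphomas against pre-tumor thymocytes it was -0.071 to 0.11 for Mbd1, -0.18 to 0.046 for Mbd2 and -0.15 to 0.15 for Zbtb4. The cause was not tested. Over all probe sets, the calls fell from 5755 to 3664 in wild-type lymphomas without wild-type replicate 1, and from 5662 to 1712 in pre-tumor thymocytes without pre-tumor replicate 2, to 2250 with the 2 groups alone and to 3269 with the block. Between the groups with MYC they ranged from 1 to 88 for the tumor genotypes (2 as reported), 2 to 118 for Dnmt3b-deficient lymphomas against pre-tumor thymocytes (20), and 7 to 148 for wild-type lymphomas against pre-tumor thymocytes (31).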
